A study of Arabidopsis thaliana with 8 samples.

Results

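The genotype by iron interaction asks whether roots of fit plants and of WT plants changed a transcript by the same factor when iron was withdrawn. Arabidopsis thaliana plants grew for 14 days on Gamborg's medium and then for 3 days on medium either lacking added iron and holding 300 µM ferrozine, which binds ferrous iron, or supplied with 50 µM Fe(III)-EDTA. All 8 arrays of the series entered, 2 biological replicates in each of 4 groups: fit -Fe, fit +Fe, WT -Fe and WT +Fe. The sources used here name neither the fit allele nor the number of plants per sample; the replicates are labelled as biological. For each of 22746 probe sets, out of 22810 with the controls, the difference of responses was taken on the log2 scale as fit -Fe minus fit +Fe, less WT -Fe minus WT +Fe. A value of 0 means the same fold change in both genotypes, and a negative value a smaller rise or a larger fall in fit. Levels below are log2 signal intensities after RMA, the authors' normalisation, in which a step of 1 is a doubling.

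FIT is a basic helix-loop-helix (bHLH) transcription factor of the root epidermis. Under iron deficiency it acts together with bHLH proteins of subgroup Ib, among them BHLH101, to activate the reduction and uptake of iron and the secretion of coumarins, phenolic compounds that mobilise iron in the soil. Genes for the subgroup Ib factors, for IRON MAN (IMA) peptides and for ubiquitin ligases of the BRUTUS family are also induced by iron deficiency. FIT, IRT1, FRO2, BHLH38, BHLH39, BHLH100 and FER1 were named by no probe set on its own, so their levels, and with them the mutation, were not analysed here.

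Replicate 2 of fit -Fe and replicate 2 of WT -Fe stood apart in RNA quality. The 3' to 5' signal ratio of the actin, GAPDH and ubiquitin controls was 5.22 on the fit -Fe replicate 2 array and 3.08 on the WT -Fe replicate 2 array, against 1.07 to 1.53 on the other arrays. Both are iron-deficient arrays, and they enter the difference with opposite signs. The number of called probe sets is also given without this pair of arrays. That fit leaves a single array in each -Fe group, so its spread comes from the +Fe arrays only. Its calls rest on the assumption that -Fe arrays vary as little, and are not like those of the main fit. A gene counts as measured here where a probe set named it alone. Genes not so named may lie among probe sets naming several genes or none. Of the root cell type markers, only the root hair expansins EXPA7 and EXPA18 were measured (2 of 8). Their summed intensity was 357.4 to 424.1 in fit -Fe, 871.9 to 988.6 in fit +Fe, 717.5 to 1091 in WT -Fe and 546.8 to 938.0 in WT +Fe. None of the 13 markers of endodermis, stele and meristem was measured, and 3 of 5 markers of shoot photosynthesis had sums of 447.7 to 471.1, 506.9 to 673.7, 379.8 to 476.5 and 589.8 to 597.7 in the same order of groups. The part of RNA quality and of cell types in the results was not tested. In whole roots, fewer cells of a type and less RNA per cell cannot be told apart.

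The responses differed in 17 probe sets (limma adjusted p under 0.05), 0.0747% of those tested. The difference was negative in 15 of them (0.0659% of probe sets) and positive in 2 (0.00879%), and its size was at least 2.32. In 13 of the 17, all with a negative difference, the group that stood apart was WT -Fe, which was high; in 11 of these the means of the other 3 groups lay within 1 of each other, the exceptions being 254534_at and 250983_at. In 2 it was WT +Fe, which was low, and in the 2 with a positive difference it was fit -Fe, which was high. A group was taken to stand apart where its mean was further from the nearest other group mean than the range of the other 3, and where both of its arrays lay outside the other 6. The 15 negative ones had a median response of 3.94 in WT and 0.10 in fit. Seen in the contrasts that make up the difference, and share its arrays, 3 of the 17 were called in the iron response of fit, all higher. Of all probe sets 0.202% were called there, 0.132% higher and 0.0703% lower. In the iron response of WT 16 of the 17 were called, all higher, where 0.431% of all were called, 0.356% higher and 0.0747% lower. Under iron deficiency 13 were lower and 2 higher in fit than in WT, where 0.273% of all were called, 0.198% lower and 0.0747% higher. Under iron sufficiency 1 was higher in fit, where 0.00879% of all were called.

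Over all probe sets the median difference was 0.04, and 740 had an unadjusted p under 0.05, 3.25% of those tested. Without the 2 arrays of high control ratio 24 probe sets were called, 13 of them among the 17, and WT -Fe still stood apart in 13 of the 17. Each group holds 2 arrays, and the count was 11 without fit -Fe replicate 1, 26 without fit -Fe replicate 2, 5 and 6 without WT -Fe replicate 1 and 2, and 3 without any single array of fit +Fe or of WT +Fe. All 17 kept their sign in these fits, and AT3G61930, CYP71B5 and the unnamed 253502_at were called in all of them.

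**Figure D1:**
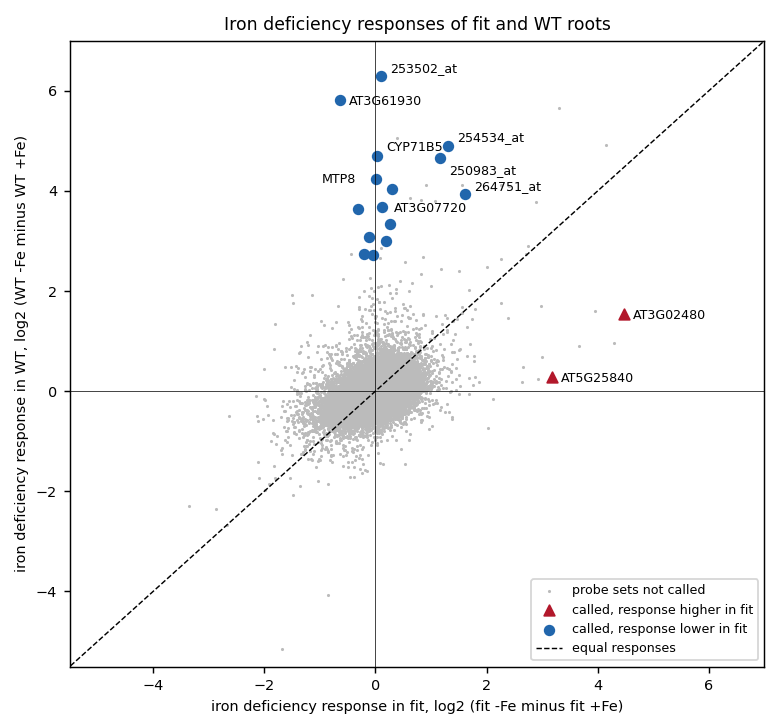
Each dot is a probe set, with its iron deficiency response in fit on the horizontal axis and in WT on the vertical axis, both log2 (-Fe minus +Fe), and the dashed line marks equal responses. The 15 called probe sets with a negative difference (blue circles) lie at WT responses of 2.71 to 6.30, and the 2 with a positive difference (red triangles) lie to the right of the line.

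The sharpest pattern was a transcript dim in 3 groups and high in WT -Fe alone. AT3G61930, for which no role is stated here, had 4.70 and 4.89 in fit -Fe, 5.63 and 5.24 in fit +Fe, 10.88 and 11.11 in WT -Fe, and 5.16 and 5.20 in WT +Fe. The response was 5.82 in WT and -0.64 in fit, and their difference of -6.45 (SE 0.29, limma adjusted p = 0.000241) was the lowest of all probe sets. CYP71B5, a cytochrome P450, had 4.06 and 4.1 in fit -Fe, 4.03 and 4.07 in fit +Fe, 8.61 and 8.81 in WT -Fe, and 4.02 and 4.01 in WT +Fe. WT -Fe lay far above the other 6 arrays, whose group means spanned 0.07, and the difference was -4.67 (SE 0.24, limma adjusted p = 0.000471). Since no signal was told apart from background here, the size of such a difference rests on the dim level: with log2 of intensity plus 32 it was -3.22 for CYP71B5 and -5.26 for AT3G61930, both still called. FOLB1, the dihydroneopterin aldolase of folate synthesis, had 4.76 and 4.16 in fit -Fe, 4.22 and 4.09 in fit +Fe, 8.17 and 7.99 in WT -Fe, and 3.97 and 4.1 in WT +Fe. Its difference was -3.74 (SE 0.32, limma adjusted p = 0.0133), and fit -Fe overlapped fit +Fe but lay above WT +Fe.

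AT3G58060 (MTP8), a vacuolar transporter of manganese and iron, had 5.28 and 4.97 in fit -Fe, 4.96 and 5.27 in fit +Fe, 9.59 and 9.14 in WT -Fe, and 5.11 and 5.15 in WT +Fe. The fit response was 0.01 (SE 0.22) against 4.24 (SE 0.22) in WT, and the difference was -4.23 (SE 0.32, limma adjusted p = 0.00536). The ZIP family metal transporter ZIP9 had 5.06 and 5.79 in fit -Fe, 5.53 and 5.46 in fit +Fe, 7.68 and 7.51 in WT -Fe, and 6.24 and 5.88 in WT +Fe. WT -Fe stood apart for ZIP9 as well, but its difference of -1.61 (SE 0.37) was not called (limma adjusted p = 0.489). Leaving out 1 array at a time, MTP8 was called in 4 of 8 fits, between -4.45 and -4.0, and FOLB1 in 2 of 8, between -4.04 and -3.43; the fits that lost both calls were those without an array of either +Fe group, and FOLB1 also lost its call without either WT -Fe array.

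Further genes with WT -Fe apart had smaller differences. ATPMEPCRB, a pectin methylesterase of the cell wall, had 4.34 and 4.68 in fit -Fe, 4.13 and 4.52 in fit +Fe, 8.09 and 7.80 in WT -Fe, and 5.01 and 4.88 in WT +Fe, a difference of -2.81 (SE 0.31). AT4G09110, of the RING-finger ubiquitin ligase family, had 4.43 and 5.10 in fit -Fe, 4.70 and 5.06 in fit +Fe, 8.23 and 8.10 in WT -Fe, and 5.20 and 4.96 in WT +Fe, a difference of -3.19 (SE 0.37). AT5G38820, of the amino acid transporter family, had 7.19 and 7.28 in fit -Fe, 7.54 and 7.34 in fit +Fe, 10.59 and 10.13 in WT -Fe, and 7.43 and 7.80 in WT +Fe, a difference of -2.95 (SE 0.32). In each of these genes WT -Fe lay above the other 6 arrays, with fit responses of 0.19, -0.11 and -0.20 beside WT responses of 3.00, 3.08 and 2.74. Their limma adjusted p-values were 0.0358, 0.0393 and 0.0358, and each stayed called in 1 of the 8 fits without an array, that without fit -Fe replicate 2.

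Of the 17, 7 named no gene here and are given by their identifiers. Among them 253502_at repeated the sharp pattern, with 3.53 and 3.64 in fit -Fe, 3.59 and 3.38 in fit +Fe, 10.49 and 10.37 in WT -Fe, and 4.24 and 4.02 in WT +Fe, a difference of -6.20 (SE 0.26). A smaller, uncalled response in fit was measured for 250983_at, with 8.63 and 8.65 in fit -Fe, 7.54 and 7.41 in fit +Fe, 12.23 and 11.98 in WT -Fe, and 7.41 and 7.49 in WT +Fe. Its arrays of fit -Fe lay above both +Fe groups, the response being 1.16 in fit (limma adjusted p = 0.0674) and 4.66 in WT, and the difference was -3.50 (SE 0.25, limma adjusted p = 0.00458). For 254534_at the responses were 1.30 in fit and 4.90 in WT, with a difference of -3.59 (SE 0.32). The last 3 with WT -Fe apart were 262412_at at -3.94 (SE 0.47, limma adjusted p = 0.0499), 252145_at at -3.06 (SE 0.34) and 253658_at at -2.75 (SE 0.32), with fit responses of -0.31, 0.27 and -0.04. Of the 17 calls that of 253658_at was lost most often, in each of the 8 fits without an array, and at -2.59 without the 2 arrays of high control ratio (limma adjusted p = 0.0936). With log2 of intensity plus 32 the calls of 262412_at, 252145_at, 253658_at, AT5G38820 and AT3G07720 were lost.

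**Figure D2:**
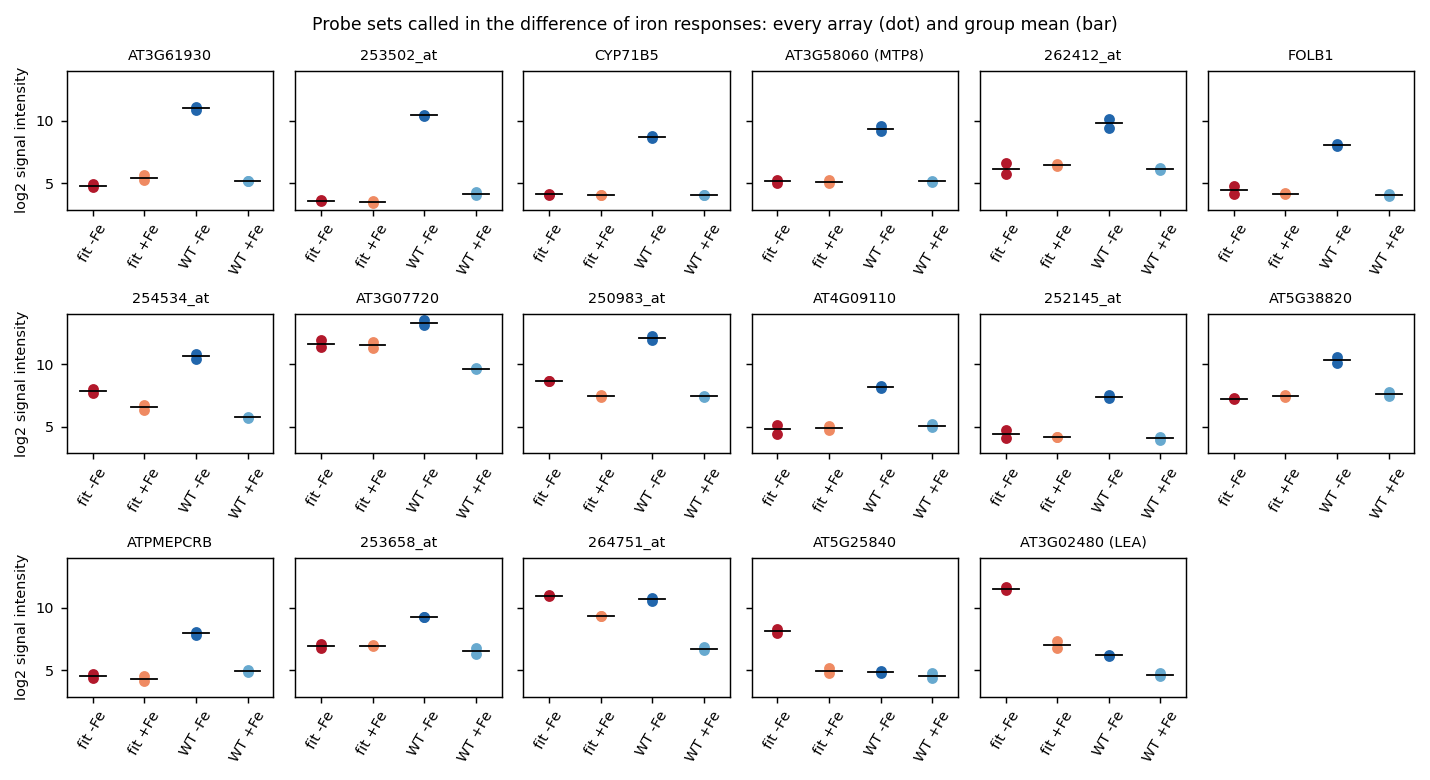
Each panel shows log2 signal intensity on the 8 arrays for a called probe set, as dots by group with a bar at the group mean, ordered by the difference of responses. WT -Fe is the high group in 13 panels, WT +Fe the low group in AT3G07720 and 264751_at, and fit -Fe the high group in AT5G25840 and AT3G02480.

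In a pair of called probe sets the group that stood apart was WT +Fe, which lay below both fit groups. AT3G07720, a kelch-repeat protein, had 11.94 and 11.38 in fit -Fe, 11.80 and 11.30 in fit +Fe, 13.52 and 13.17 in WT -Fe, and 9.59 and 9.72 in WT +Fe. Both fit groups overlapped each other and lay between the WT groups, and the response was 0.11 (SE 0.27) in fit against 3.69 (SE 0.27) in WT. The difference was -3.57 (SE 0.38, limma adjusted p = 0.0358). The gap of WT +Fe below the next group, 1.90, was little more than the range of the other 3, 1.79, and WT -Fe was also high, so the assignment to WT +Fe is a narrow one. The fit +Fe minus WT +Fe value of 1.90 (SE 0.27) was not called by itself (limma adjusted p = 0.230).

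The unnamed 264751_at had 11.05 and 10.91 in fit -Fe, 9.37 and 9.34 in fit +Fe, 10.58 and 10.77 in WT -Fe, and 6.62 and 6.84 in WT +Fe. Both genotypes responded, by 1.62 in fit and 3.94 in WT (limma adjusted p = 0.0183 and 9.15e-05). The -Fe group means lay 0.31 apart, with fit -Fe above WT -Fe, and fit +Fe was 2.63 above WT +Fe (limma adjusted p = 0.0115). The difference was -2.32 (SE 0.25, limma adjusted p = 0.0358). Without the 2 arrays of high control ratio it was -2.16 and not called (limma adjusted p = 0.0830). AT3G07720 and 264751_at stayed called in 2 and 1 of the 8 fits without an array, in each case fits without an array of fit -Fe.

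The opposite pattern, high in fit -Fe alone, was called for 2 genes. AT5G25840, for which no role is stated here, had 8.27 and 8.01 in fit -Fe, 5.15 and 4.77 in fit +Fe, 4.77 and 4.94 in WT -Fe, and 4.36 and 4.76 in WT +Fe. It rose in fit by 3.18 (SE 0.23) and had a WT response of 0.29 (SE 0.23), a difference of 2.89 (SE 0.32, limma adjusted p = 0.0358). AT3G02480, of the late embryogenesis abundant (LEA) protein family known from seeds and water stress, had 11.66 and 11.40 in fit -Fe, 6.75 and 7.35 in fit +Fe, 6.21 and 6.16 in WT -Fe, and 4.77 and 4.52 in WT +Fe. It rose in both genotypes, by 4.48 in fit and by 1.54 in WT (limma adjusted p = 0.00191 and 0.0484), and the difference was 2.93 (SE 0.34, limma adjusted p = 0.0393). Here fit +Fe also lay above both WT groups. Each of these 2 calls was kept in 1 of the 8 fits without an array (that without fit -Fe replicate 2) and was lost without the 2 arrays of high control ratio, at 3.10 and 3.04 (limma adjusted p = 0.0581 and 0.0881), and with array weights.

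Coumarin synthesis, the best known output of FIT beside iron uptake, had 5 of 12 list members measured. None was called in the main fit, where 0.0747% of all probe sets were. All 5 had a negative difference, as had 10315 of all 22746 probe sets, and their median was -2.21 against 0.04 over all. The list was chosen with earlier results of these data known. AT3G12900 (S8H), which hydroxylates scopoletin to fraxetin, had 5.37 and 6.76 in fit -Fe, 5.72 and 5.64 in fit +Fe, 11.18 and 10.71 in WT -Fe, and 5.53 and 6.24 in WT +Fe. WT -Fe stood far apart, but the fit -Fe and WT +Fe replicates were spread, so that a difference of -4.68 carried an SE of 0.62 (limma adjusted p = 0.0815). With both arrays of high control ratio left out the difference was -5.61, and without fit -Fe replicate 2 alone -5.37, 6.76 being the level on that array. BGLU42, a beta-glucosidase, had 8.28 and 7.99 in fit -Fe, 8.07 and 8.05 in fit +Fe, 11.34 and 10.86 in WT -Fe, and 8.27 and 8.60 in WT +Fe. Its difference was -2.59 (SE 0.32, limma adjusted p = 0.0631), and -2.69 without the 2 arrays of high control ratio. AT3G13610 (F6'H1), the hydroxylase at the start of coumarin synthesis, had -2.21 (SE 0.33, limma adjusted p = 0.121), with 10.94 and 10.77 in fit -Fe, 11.21 and 10.90 in fit +Fe, 13.21 and 12.70 in WT -Fe, and 11.06 and 10.85 in WT +Fe. The coumarin synthase AT1G28680 (COSY) had -1.03 (SE 0.30), and AT1G55290 (F6'H2), related to F6'H1, -1.20 (SE 0.34).

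Among the bHLH factors and signalling genes, 10 of 18 members were measured and none was called, where 0.0747% of all probe sets were. The difference was negative in 9, as in 10315 of all 22746 probe sets, and the median was -0.38. BHLH101 had 11.59 and 11.51 in fit -Fe, 9.04 and 9.24 in fit +Fe, 9.97 and 10.51 in WT -Fe, and 6.08 and 6.21 in WT +Fe. All 4 groups were separate, fit above WT at either iron supply, and WT +Fe stood apart as the low group. The fit minus WT value was called at +Fe and not at -Fe (limma adjusted p = 0.0115 and 0.0891). The responses were 2.41 in fit and 4.09 in WT, a difference of -1.68 (SE 0.31, limma adjusted p = 0.243). AT1G74770 (BTSL1), a hemerythrin-domain ubiquitin ligase, also had higher levels in fit than in WT at +Fe, but this was not called (limma adjusted p = 0.721). It had 11.50 and 10.71 in fit -Fe, 10.26 and 10.24 in fit +Fe, 11.49 and 11.18 in WT -Fe, and 8.84 and 8.48 in WT +Fe. Its difference was -1.82 (SE 0.40, limma adjusted p = 0.415), with WT +Fe low, and -1.26 (SE 0.34) on its dimmer probe set. Its relative AT1G18910 (BTSL2) had nearly the same difference, -1.79 (SE 0.25, limma adjusted p = 0.0991), from another group: it had 9.29 and 9.08 in fit -Fe, 9.23 and 9.29 in fit +Fe, 10.82 and 10.65 in WT -Fe, and 9.0 and 9.05 in WT +Fe, so that WT -Fe stood apart as high.

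PYE, a bHLH repressor of the iron response, had a difference of -0.00222 (SE 0.24), with responses of 1.39 in both genotypes. It had 8.39 and 8.29 in fit -Fe, 7.03 and 6.87 in fit +Fe, 7.92 and 7.90 in WT -Fe, and 6.46 and 6.57 in WT +Fe. Fit lay above WT at both iron supplies by 0.43, a gap that was called at neither. The subgroup IVc factors ILR3, bHLH104, bHLH115 and bHLH34 had -0.50 (SE 0.27), -0.18 (SE 0.28), -0.25 (SE 0.31) and 0.22 (SE 0.29), and bHLH121 had -0.08 (SE 0.35).

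For some genes that responded in both genotypes from different starting levels, the sign of the difference changed with the scale. On linear intensity, BHLH101 averaged 3002 in fit -Fe, 565.3 in fit +Fe, 1233 in WT -Fe and 70.97 in WT +Fe. The rise was thus 2436 units in fit and 1162 in WT, a linear difference of 1275 (SE 229.2, limma adjusted p = 0.597), while the fold was 5.32 in fit and 17.1 in WT. AT1G47400 (IMA1), an IRON MAN peptide gene, had log2 levels of 10.53 and 11.33 in fit -Fe, 6.43 and 7.14 in fit +Fe, 9.42 and 9.83 in WT -Fe, and 4.73 and 4.68 in WT +Fe. Its log2 difference was -0.78 (SE 0.47, not called), its linear difference 1141 (SE 523.8). In all, 4 of the 36 measured list members changed sign between the scales (BHLH101, IMA1, PYE and the stromal ascorbate peroxidase SAPX), none of them called on either. All 17 called probe sets kept their sign, and limma on linear intensity called 0, with 849 at an unadjusted p under 0.05. For 264751_at the linear responses were 1365 in fit and 1531 in WT, a difference of -166.0 (SE 134.6), so its call rests on the fold scale.

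**Figure D3:**
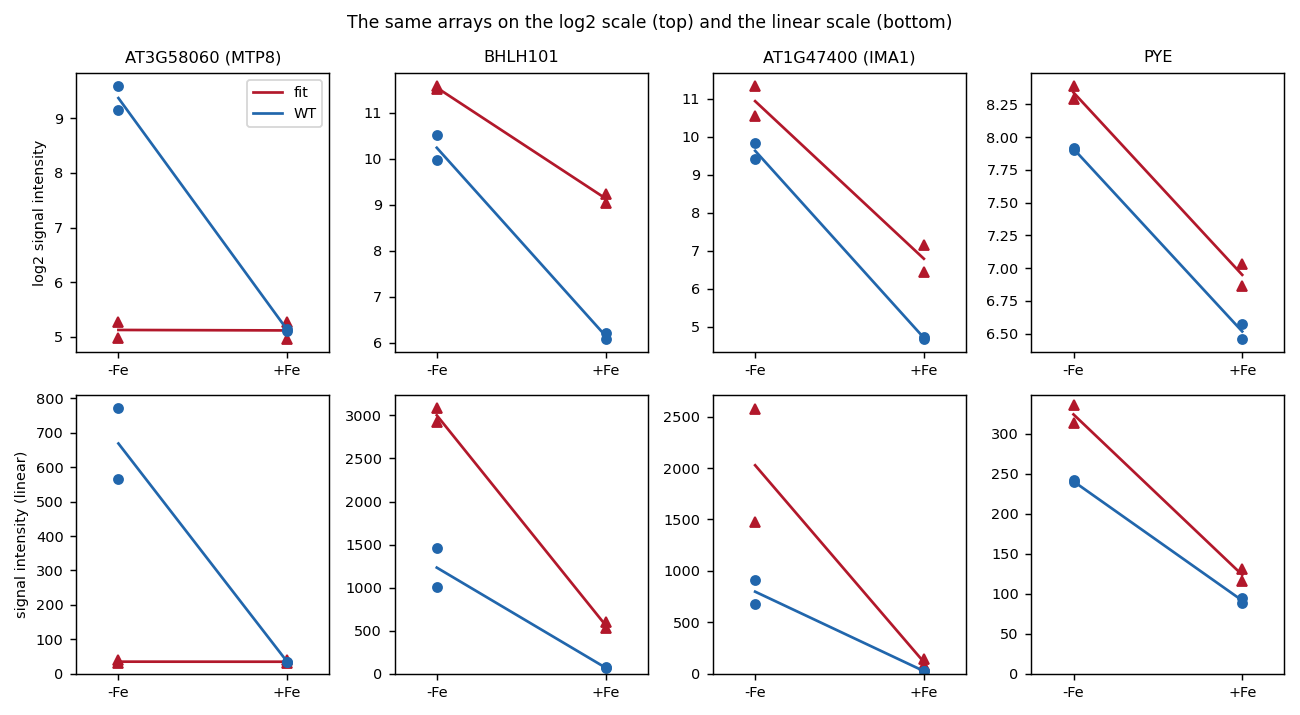
Signal by iron supply in fit (red triangles) and WT (blue circles) for 4 genes, as log2 intensity above and linear intensity below; points are arrays and lines join group means. For MTP8 the fit line is flat on both scales, while for BHLH101 and IMA1 the WT line is steeper on the log2 scale and the fit line on the linear scale.

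Some transcripts of mitochondrial stress leaned the other way. Of 15 members 6 were measured and none was called, where 0.0747% of all probe sets were. All 6 had a positive difference, as had 12431 of all 22746 probe sets. Their median was 1.39 against 0.04 over all probe sets, with NDB2, HSP23.5 and AT12CYS-1 at 0.10 to 0.42. The list was chosen with earlier results of these data known. NDB4, a mitochondrial NAD(P)H dehydrogenase outside complex I, had 7.94 and 8.62 in fit -Fe, 5.4 and 5.33 in fit +Fe, 5.46 and 6.10 in WT -Fe, and 5.69 and 5.38 in WT +Fe. AT2G21640 (UPOX), a mitochondrial protein used as a marker of oxidative stress, had 8.66 and 10.35 in fit -Fe, 5.16 and 5.27 in fit +Fe, 5.08 and 6.61 in WT -Fe, and 5.01 and 4.77 in WT +Fe. AT5G09570 (AT12CYS-2), a small cysteine-rich mitochondrial protein, had 10.36 and 10.63 in fit -Fe, 6.54 and 6.55 in fit +Fe, 7.62 and 8.29 in WT -Fe, and 6.07 and 6.65 in WT +Fe. In all 3 genes fit -Fe lay above the other 6 arrays, and within both -Fe groups replicate 2, the array of high control ratio, had the higher level.

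The differences were 2.68 (SE 0.42, limma adjusted p = 0.149) for NDB4, 3.33 (SE 0.85, limma adjusted p = 0.667) for UPOX and 2.35 (SE 0.40, limma adjusted p = 0.177) for AT12CYS-2. Without the 2 arrays of high control ratio they were 2.66, 3.25 and 2.55, in a fit with a single array in each -Fe group. NDB2, AT5G51440 (HSP23.5) and AT5G64400 (AT12CYS-1), of the same list, had 0.33 (SE 0.27), 0.42 (SE 0.40) and 0.10 (SE 0.25). PUB19, a U-box ubiquitin ligase of the water stress list, had 8.93 and 8.74 in fit -Fe, 6.88 and 7.06 in fit +Fe, 6.25 and 6.36 in WT -Fe, and 6.04 and 6.19 in WT +Fe, with fit -Fe apart and a difference of 1.67 (SE 0.25, limma adjusted p = 0.127). Of the 3 measured members of that list AT3G02480 was called, and COR15A, a cold-regulated protein, had 0.10 (SE 0.28).

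The measured genes of iron-sulfur and haem proteins had differences of about the size of their SEs. The 4 measured of 16 had differences between -0.36 and 0.33, none called: ISU1, a scaffold protein of iron-sulfur cluster assembly, at -0.36 (SE 0.32), SDH2-1, of succinate dehydrogenase, at -0.34 (SE 0.31), SAPX at -0.24 (SE 0.26) and SIR, sulfite reductase, at 0.33 (SE 0.39). SAPX fell in both genotypes, with responses of -1.51 in fit and -1.27 in WT (limma adjusted p = 0.0268 and 0.0375). The copper chaperone CCS had -0.34 (SE 0.38). The photosynthesis genes RCA, LHCB4.1 and PORB had -0.04 (SE 0.24), -0.11 (SE 0.46) and 0.63 (SE 0.67). EXPA7 had a difference of -1.72 (SE 0.47, limma adjusted p = 0.817) and EXPA18 one of -1.37 (SE 0.44, not called), and fit -Fe was the low group for both. In all, 36 of 145 list members were measured, and MTP8 and AT3G02480 were called.

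**Figure D4:**
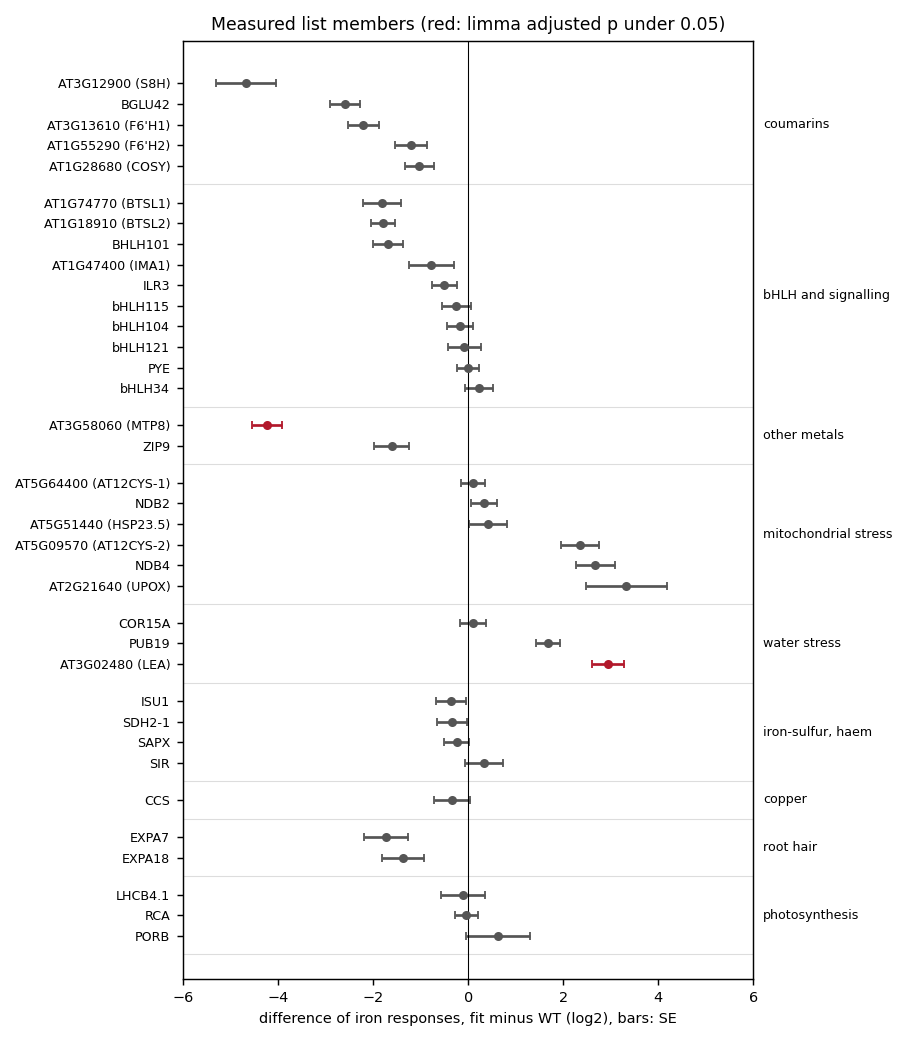
Difference of iron responses (fit minus WT, log2) for the 36 measured list members, with bars of 1 SE, grouped by list; red marks the 2 called. The 5 coumarin genes lie at -4.68 to -1.03 and the 6 mitochondrial stress genes at 0.10 to 3.33.

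A larger set passed 2 in size without always passing the test: 70 probe sets, 57 with a negative and 13 with a positive difference, of which 17 were called. WT -Fe stood apart as high in 31 of the 70, fit -Fe as high in 11 and as low in 5, WT +Fe as low in 3 and as high in 1, and in 19 no single group stood apart. All 31 with WT -Fe high had a negative difference, and all 11 with fit -Fe high a positive one, as the arithmetic of the difference requires. In 34 of the 70 the responses of fit and WT had opposite signs, and in 46 the response of WT was the larger in size. These counts describe the fitted values, and 53 of the 70 probe sets did not pass the test.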

How the data were processed

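Total RNA from roots was hybridised as biotin-labelled cRNA to Affymetrix Arabidopsis arrays, per the labels' protocols. The authors deposited signal intensity made with RMA (per the submitters' processing notes, which give no version). These deposited values were linear, from 7.13 to 21060, and log2 was taken of them. RMA can compress dim signals, and how far this changed folds from a dim level was not tested.

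After 64 control probe sets were left out, limma 3.58.1 (R 4.3.3; lmFit, eBayes, no trend) fitted the 4 group means, with 4 residual and 3.82 prior degrees of freedom, and Benjamini-Hochberg adjustment ran over 22746 probe sets. The number of arrays limits the precision. The fit was also run on simulated data with independent errors of equal spread in all groups. Those data held no difference in RNA quality between arrays, so the run does not test its effect.

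Names came from the array's platform annotation, updated through RefSeq's TAIR10.1 genes (names only): 13513 probe sets named 1 gene, 503 several and 8730 none. Names in brackets come from the gene lists. Members and lists were chosen with earlier results of these data known. Named were the called probe sets (up to 20 and, unnamed, 8 in each direction), called list members and up to 4 others, and FIT, IRT1, FRO2, BHLH38, BHLH39, BHLH100, BHLH101, IMA1, S8H and FER1; other list members, 251677_at, and the genes of the closing section's last part were added after their values were seen. The lists were described by counts and medians. For a gene with several probe sets the brightest was used. The iron uptake, translocation, iron storage, phosphate, endodermis, stele, meristem and reference gene lists had no member named alone by a probe set. Such genes may lie among the 503 and 8730 probe sets naming several genes or none, and were not identified. No 2 arrays held identical values.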

Additional observations from a re-analysis of the deposited data

Results flagged for a closer look

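The iron responses of fit and WT differed by a test of the difference itself (limma, adjusted p under 0.05) in 17 probe sets. The difference, fit response minus WT response on the log2 scale, was negative for AT3G61930 (-6.45), 253502_at (-6.20), CYP71B5 (-4.67), MTP8 (AT3G58060, -4.23), 262412_at (-3.94), FOLB1 (-3.74), 254534_at (-3.59), AT3G07720 (-3.57), 250983_at (-3.50), AT4G09110 (-3.19), 252145_at (-3.06), AT5G38820 (-2.95), ATPMEPCRB (-2.81), 253658_at (-2.75) and 264751_at (-2.32). It was positive for AT5G25840 (2.89) and AT3G02480 (2.93). With 2 arrays a group, no search for a sample far from the others of its group was made.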

How the results depend on the processing

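The 17 calls kept their sign in every refit named here. Their number was 12 to 24 with quantile normalisation, median centring, log2 of intensity plus 32, without the dimmest 0.25 of probe sets, with array weights, with trended, robust variances, without the 2 arrays of high control ratio, or at an adjusted p under 0.1. It was 3 to 26 leaving out 1 array at a time, where the lone array of a group is assumed to vary like the others, 93 when the 3' to 5' ratio entered as covariate (79 negative, 14 positive), 0 on linear intensity (limma, 849 at an unadjusted p under 0.05) and 10 with only probe sets naming 1 gene (fewer probe sets tested). With the replicate block 40 were called, 33 negative and 7 positive, including all 17. Deviations of equal replicate numbers correlated at 0.131 to 0.659 between groups, highest for fit -Fe with WT -Fe. In both of these groups replicate 2 was the array of high control ratio. The labels state nothing shared by arrays of equal number, and a part of RNA quality in the block was not tested. The block added S8H, BGLU42, F6'H1, BTSL2 and AT12CYS-2 among the list members, and the covariate BHLH101, NDB4, UPOX and PUB19 besides. With array weights the positive calls AT5G25840 and AT3G02480 missed the threshold (limma adjusted p = 0.0512 and 0.0759). WT -Fe stood apart in 12 of the 17 with a gap over 2 times the range and in 13 with log2 of intensity plus 32 or, an alternative chosen after seeing the data, without the 2 arrays. Called list members were 2 with every 1-gene probe set and 5 without the 2 arrays, also chosen after seeing the data. The cause of these shifts was not tested. No level was told apart from background here.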

Other observations

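Among the probe sets over 2 in size that were not called, several genes in neighbouring loci had like values. The jacalin-type lectin genes AT1G52050, AT1G52060 and AT1G52070 had differences of -2.22 (SE 0.46), -2.14 (SE 0.37) and -2.67 (SE 0.47), with limma adjusted p-values of 0.326, 0.181 and 0.202. AT1G52060 had 8.78 and 9.42 in fit -Fe, 10.71 and 10.24 in fit +Fe, 9.70 and 9.88 in WT -Fe, and 9.01 and 9.05 in WT +Fe. The responses of the 3 genes ran in opposite directions, from -1.82 to -1.24 in fit and from 0.76 to 0.99 in WT, and in each the fit +Fe level was the highest and no single group stood apart by the rule used. These genes are similar in sequence, and how far their probes share signal was not tested.

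The highest difference of any probe set belonged to AT1G52820, of the 2-oxoglutarate-dependent dioxygenase family, at 3.47 (SE 0.66, limma adjusted p = 0.265). It had 5.97 and 7.34 in fit -Fe, 7.86 and 8.83 in fit +Fe, 5.52 and 5.22 in WT -Fe, and 10.69 and 10.37 in WT +Fe. Both groups of WT lay outside those of fit, WT +Fe above and WT -Fe below. The unnamed 267626_at had the same order, with 5.74 and 6.85 in fit -Fe, 6.67 and 7.63 in fit +Fe, 5.08 and 5.51 in WT -Fe, and 9.47 and 9.28 in WT +Fe, a difference of 3.23 (SE 0.60).

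The unnamed 251677_at was the only probe set over 2 in size whose sign changed with the scale. Its log2 difference was -2.57 (SE 0.45), with 11.91 and 11.42 in fit -Fe, 10.28 and 9.93 in fit +Fe, 11.16 and 10.71 in WT -Fe, and 7.19 and 6.42 in WT +Fe. On linear intensity the rise was 2179 units in fit and 1864 in WT.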
